A study of Mus musculus with 18 samples.

Results

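The genes described here are 10 genes of the actin cytoskeleton and of focal adhesions, out of 32699 gene symbols in the count table: the cytoplasmic actins Actb and Actg1, the actin-monomer binder Pfn1, the tropomyosins Tpm1 and Tpm4, the calponin Cnn2, the crosslinker Flna, the non-muscle myosin heavy chain Myh9, and the adhesion proteins Vcl and Zyx. They were chosen by symbol, as cytoplasmic actins and actin-binding genes known as targets of serum response factor (SRF), and the counts of all rows with the same symbol were added up. Earlier results of these data were known when they were chosen. Their shares and medians, set beside those of all genes, are therefore a description. All 10 were found and all 10 passed the filter on low counts.

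RNA was sequenced from PyMT-BO1 cells, a luminal B-like mouse mammary cancer line of C57BL/6 background. In all groups integrin β3 had been knocked out, and the cells then received by retrovirus either functional human integrin β3 (hβ3 line), a mutant integrin β3 that cannot signal (Δβ3 line) or the empty vector pMx (pMx line). Each line was treated for 24 h with 10 nM docetaxel or with its vehicle DMSO, with 3 cultures per group and 18 libraries in all. Each construct is represented by 1 line, so a difference between lines is a difference between those lines. The p-values rest on the spread between cultures within groups, estimated over all 6 groups together. The comparisons ask how the actin genes differ with the integrin that the cells carry, and how they respond to docetaxel, a drug that stabilises microtubules.

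Integrins join the extracellular matrix to actin filaments through adhesion proteins such as vinculin and zyxin, and myosin II pulls on those filaments. Actin monomers hold back the MRTF cofactors of SRF. When monomers are taken up into filaments, MRTF enters the nucleus and SRF drives transcription of actin and of actin-binding genes through a short DNA element, the CArG box.

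The libraries held between 7972612 and 18961392 counts. Itgb3, the gene that was knocked out, stood at 99.97 to 119 CPM (counts scaled to a library of 1e+06) in docetaxel-treated hβ3 cells, 72.2 to 131 CPM in hβ3 cells in DMSO, and 32.9 to 114 CPM in Δβ3 cells with docetaxel and 66.6 to 113 CPM with DMSO. In pMx cells it stood at 0.42 to 0.84 CPM with docetaxel and 0.32 to 1.30 CPM with DMSO. These counts were made on the mouse genome, so the level of a human construct cannot be read from them. The sum of 26 heart muscle markers reached 53418 CPM in culture 2 of the docetaxel-treated Δβ3 cells and 6409 CPM in culture 1 of the Δβ3 cells in DMSO, against 209 to 2695 CPM in the other 16 libraries; 25 of the 26 markers had counts and Nppb was at 0. The sum of 10 luminal epithelial markers was 1191 and 3271 CPM in those 2 libraries and 1981 to 3416 CPM in the other 16, with Gata3 and Pgr at 0. The smooth muscle, skeletal muscle, fibroblast, endothelial and leukocyte lists were also highest in Δβ3 docetaxel culture 2, and so was the list of basal and myoepithelial markers. Counts of called genes are therefore given with all 18 libraries and with the 16 that remain without these 2, and values of single genes are from 18 libraries unless 16 are named. The biological coefficient of variation was 36.1% with 18 libraries and 13.2% with 16. In such bulk RNA, fewer cells of a type and less RNA per cell cannot be told apart.

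Promoters were looked at for the CArG box because the genes were chosen as SRF targets. RefSeq promoters of the mouse build GRCm38.p6, running from 250 bases before the transcription start to 50 after it, were available for 9 of the 10 genes (all but Actb). A CArG box on either strand was found in 3 of them, Cnn2, Vcl and Actg1, against 535 of 32851 promoters of the same length, or 1.63%. The 3 are shown 5′ to 3′ on the strand of the gene, with the CArG box in capitals. They lie at chr10:79988350-79988649 (Cnn2, plus strand), chr14:20929148-20929447 (Vcl, plus strand) and chr11:120348446-120348745 (Actg1, minus strand).
Cnn2: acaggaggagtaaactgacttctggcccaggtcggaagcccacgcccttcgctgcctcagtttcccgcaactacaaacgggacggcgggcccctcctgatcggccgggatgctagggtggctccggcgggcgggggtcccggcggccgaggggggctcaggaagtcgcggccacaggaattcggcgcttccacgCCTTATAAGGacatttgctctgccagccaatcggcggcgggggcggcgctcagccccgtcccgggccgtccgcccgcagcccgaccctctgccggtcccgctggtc
Vcl: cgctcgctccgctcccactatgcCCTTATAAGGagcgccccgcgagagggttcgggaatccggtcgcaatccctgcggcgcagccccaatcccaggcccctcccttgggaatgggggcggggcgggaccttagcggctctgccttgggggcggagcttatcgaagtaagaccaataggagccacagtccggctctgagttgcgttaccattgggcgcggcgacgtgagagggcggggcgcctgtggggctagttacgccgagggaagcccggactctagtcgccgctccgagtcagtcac
Actg1: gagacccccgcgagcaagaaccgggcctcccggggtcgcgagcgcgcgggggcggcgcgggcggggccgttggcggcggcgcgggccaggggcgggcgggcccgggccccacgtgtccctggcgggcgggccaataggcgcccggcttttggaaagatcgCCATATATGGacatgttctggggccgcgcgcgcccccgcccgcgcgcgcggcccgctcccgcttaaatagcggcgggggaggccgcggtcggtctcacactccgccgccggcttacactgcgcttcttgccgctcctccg
The box begins at position -56 from the start in Cnn2, -227 in Vcl and -90 in Actg1. The boxes of Cnn2 and Vcl have the same 10 letters, and that of Actg1 differs from them. All 3 begin with CC, end with GG and hold only A and T between. Near matches, such as ccatatatag in the Tpm1 promoter, were not counted, so looser forms of the element are not shown to be absent. Of 2 other motifs searched on both strands, TATAAA was found in the promoter of Myh9 alone and is held by 13.6% of all promoters. CATTCC, the core of the TEAD site, was found in Tpm1, Vcl, Flna and Pfn1 and is held by 14.7% of all promoters. A match of letters is a description of the window and not a measured binding site.

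The table counts reads on transcript models, and the depth behind the genes differed widely. Actb had 2461891 counts over all libraries, Myh9 634754, Pfn1 343831, Tpm4 199609, Vcl 135419 and Cnn2 80836. Tpm1 had 4392 counts, Zyx 1021, Actg1 662 and Flna 104, each spread over 2 to 12 models of which 1 or 2 had any counts. The sources used here do not say how reads fitting several models were handled, so these 4 genes are not shown to be low in the cells. Actb and Actg1 also have similar coding sequences, which were not compared here. The actin genes have processed copies elsewhere in the genome too, so reads may be split among them. Per kilobase, among the 4 genes with a single model, hβ3 cells in DMSO had 8064 ± 742 CPM of Actb, 2042 ± 123 CPM of Pfn1, 511 ± 39.7 CPM of Tpm4 and 417 ± 7.64 CPM of Cnn2 (SD, n = 3 cultures). In pMx cells in DMSO the levels per kilobase were 4988 ± 219 CPM of Actb, 1651 ± 178 CPM of Pfn1, 406 ± 13.6 CPM of Tpm4 and 98.5 ± 3.05 CPM of Cnn2, the same order.

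**Figure D1:**
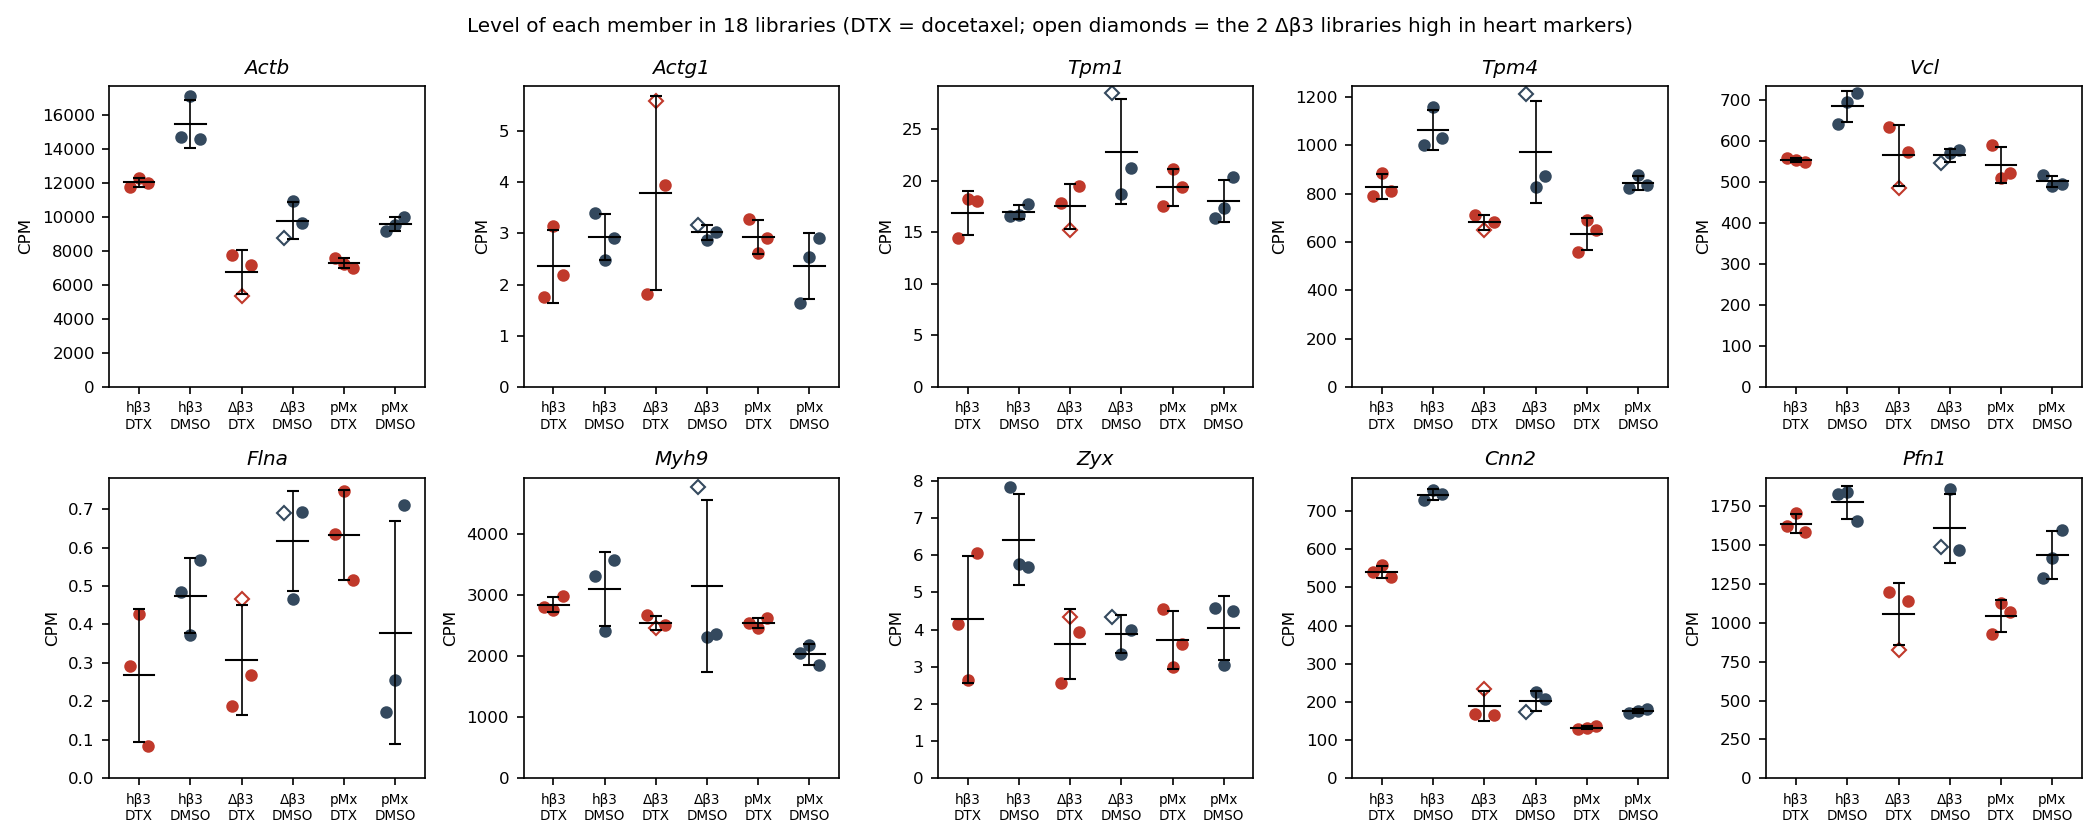
Level of each of the 10 genes in CPM (linear axis from 0) in each library, by line and treatment, with docetaxel (DTX, red) left of DMSO (dark); bars show the mean and SD of 3 cultures, and open diamonds mark the 2 Δβ3 libraries with the highest heart marker sums. Cnn2 stands at 526 to 756 CPM in all 6 hβ3 libraries and at 129 to 234 CPM in all 12 others, and Myh9 reaches 4774 CPM in Δβ3 DMSO culture 1.

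In DMSO, hβ3 cells had more Actb, Vcl and Cnn2 RNA than pMx cells. Cnn2, a calponin that binds actin filaments, was 4.23-fold higher, Actb, the main cytoplasmic actin, 1.62-fold higher, and Vcl, the vinculin that ties integrin adhesions to actin, 1.37-fold higher. These were 3 of the 10 genes, all higher in hβ3, where 9.02% of all 12145 tested genes were called at an adjusted p under 0.05 (edgeR quasi-likelihood test, Benjamini-Hochberg). With 16 libraries the count was 6 of 10, all higher, against 26.8% of all genes, the additions being Tpm4, Myh9 and Pfn1. The median log2 difference of the 10 genes was 0.39, against -0.01 over all genes tested, and 9 of the 10 had a positive difference. Tpm1 was the exception, at -0.09 ± 0.18 (SE; adjusted p = 0.86). The heart muscle marker sum was 250.2 to 565 CPM in hβ3 and 482 to 2371 CPM in pMx libraries in DMSO, and the luminal sum 1981 to 2077 and 2247 to 2587 CPM; their part in these differences was not tested.

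Cnn2, at chr10:79988584-79996062 (plus strand), had the widest gap. Its level was 729, 756 and 743 CPM in hβ3 cells in DMSO, against 174, 226 and 208 CPM in Δβ3 cells and 170, 176 and 181 CPM in pMx cells. The hβ3 cultures lay far above both other lines, whose ranges overlapped. The log2 difference of Cnn2 between hβ3 and pMx was 2.08 ± 0.14 (SE; 95% interval 1.79 to 2.37; adjusted p = 4.19e-08), and only 97 of the 12145 genes had a higher one. Against Δβ3 it was 1.88 ± 0.14 (adjusted p = 8.2e-08), or 3.67-fold. With 16 libraries the Cnn2 differences were 2.06 against pMx and 1.76 against Δβ3.

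Actb differed in the same direction by less. The gene lies at chr5:142903115-142906754 (minus strand, mm10, GENCODE M21). It stood at 14698, 17128 and 14623 CPM in hβ3 cells in DMSO, 8746, 10964 and 9675 CPM in Δβ3 cells, and 9173, 9544 and 10012 CPM in pMx cells. The lowest hβ3 culture was above the highest culture of either other line. The log2 difference of Actb from pMx was 0.69 ± 0.14 (SE; adjusted p = 0.00426), and from Δβ3 it was 0.66 ± 0.14 (adjusted p = 0.00475). These 2 comparisons share the hβ3 libraries. Both calls held with 16 libraries and in each fit that left out 1 library.

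Vcl (chr14:20929398-21033676, plus strand) and Zyx belong to the adhesion side. Vcl stood at 643, 695 and 716 CPM in hβ3 cells in DMSO, against 547, 572 and 577 CPM in Δβ3 cells and 518, 490 and 496 CPM in pMx cells. All 3 hβ3 cultures were above all cultures of the other lines, and Δβ3 lay above pMx. On the log2 scale Vcl differed from pMx by 0.45 ± 0.11 (SE; adjusted p = 0.0157). That call was lost with adjusted p between 0.0566 and 0.0846 when pMx DMSO culture 2 or 3, or hβ3 DMSO culture 2 or 3, was left out, and at 0.42 (adjusted p = 0.0872) with no filter on low counts. Against Δβ3 the log2 difference of Vcl was 0.28 ± 0.11 (adjusted p = 0.122), and it was called with 16 libraries (0.24, adjusted p = 0.0205) and without Δβ3 docetaxel culture 2 alone (0.28, adjusted p = 0.0204). Zyx, the LIM protein zyxin, had 7.83, 5.77 and 5.68 CPM in hβ3 cells in DMSO, against 4.34, 3.34 and 3.98 CPM in Δβ3 cells and 4.59, 3.06 and 4.51 CPM in pMx cells. The hβ3 range did not overlap the others, yet at 28 to 113 counts per library the log2 differences of Zyx, 0.67 ± 0.30 against pMx and 0.73 ± 0.31 against Δβ3, had adjusted p of 0.238 and 0.137, and of 0.0686 and 0.0584 with 16 libraries. Over the 10 genes, 7 had hβ3 cultures all above the pMx cultures in DMSO, where 38.5% of all genes had no overlap in either direction. Against Δβ3 in DMSO 4 were all above and 1 all below, where 32.9% had no overlap.

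Myh9, the heavy chain of non-muscle myosin IIA, depended on 1 library. It stood at 3313, 2419 and 3571 CPM in hβ3 cells in DMSO, against 4774, 2312 and 2365 CPM in Δβ3 cells and 2050.3, 2185 and 1852 CPM in pMx cells. The highest value of all 18 libraries was that of Δβ3 DMSO culture 1, one of the libraries with high heart muscle markers. The log2 difference of Myh9 between hβ3 and Δβ3 was -0.02 ± 0.22 (SE; adjusted p = 0.964) with 18 libraries and 0.39 (adjusted p = 0.0203) with 16, a turn in direction. Against pMx it was 0.61 ± 0.22 (adjusted p = 0.102), and 0.59 (adjusted p = 0.00419) without Δβ3 DMSO culture 1 alone. The share of the ribosomal precursor Rn45s in the counts was 41.51% in Δβ3 DMSO culture 1, and 27.46%, 10.87% and 32.99% in hβ3 DMSO cultures 1, 2 and 3, against 8.36% to 9.81% in pMx cells in DMSO. In DMSO, Myh9 was higher in the 3 libraries with the most Rn45s, and Δβ3 docetaxel culture 2, with 23.59% Rn45s, had 2462 CPM of Myh9. Apart from a fit without the Rn45s counts, the part of Rn45s in the Myh9 differences was not tested. Cnn2 and Actb were highest in hβ3 DMSO culture 2, the hβ3 culture in DMSO with the least Rn45s. Every hβ3 culture in DMSO held more Rn45s than every pMx culture in DMSO. In the fit without the Rn45s counts no call of Cnn2 or Actb was lost. That fit takes this gene alone out of the counts, so the part of anything else that differs with Rn45s was not tested.

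**Figure D2:**
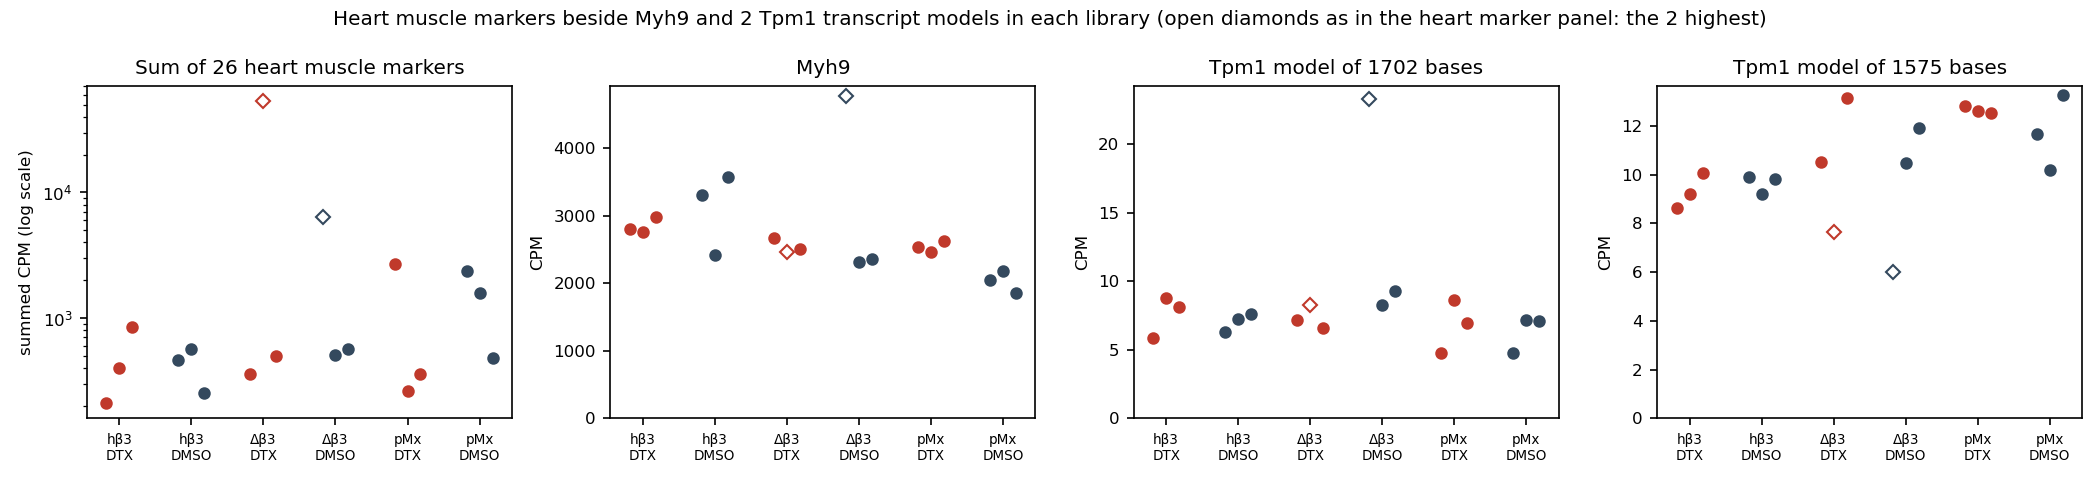
Summed CPM of 26 heart muscle markers (log axis), and CPM of Myh9 and of the 2 Tpm1 models with counts (linear axes), in each library, with docetaxel (DTX, red) left of DMSO (dark); open diamonds are the 2 Δβ3 libraries with the highest marker sums. Myh9 and the longer Tpm1 model are highest in Δβ3 DMSO culture 1, and neither stands apart in Δβ3 docetaxel culture 2, where the marker sum is highest.

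The tropomyosins coat actin filaments. Tpm4 stood at 1002, 1157 and 1031 CPM in hβ3 cells in DMSO, against 1213, 828 and 872 CPM in Δβ3 cells and 822, 876 and 836 CPM in pMx cells. The hβ3 cultures were above all pMx cultures, and Δβ3 overlapped them through culture 1. Between hβ3 and pMx, Tpm4 differed on the log2 scale by 0.33 ± 0.14 (SE; adjusted p = 0.185), and it was called without Δβ3 DMSO culture 1 (0.31, adjusted p = 0.0428) and with 16 libraries (0.31, adjusted p = 0.00213). Between hβ3 and Δβ3 it was 0.13 ± 0.14 (adjusted p = 0.593) with 18 libraries and 0.31 (adjusted p = 0.00696) with 16. Tpm1 had 2 models with counts, of 1575 and 1702 bases. The model of 1702 bases had 230 counts in Δβ3 DMSO culture 1, against 107 and 108 in the other 2 cultures of that group, while the model of 1575 bases had 59 there, against 135 and 138. Summed over models, the log2 difference of Tpm1 between hβ3 and Δβ3 was -0.43 ± 0.18 (adjusted p = 0.131), and -0.25 (adjusted p = 0.228) with 16 libraries.

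Pfn1, profilin 1, supplies actin monomers to growing filament ends. It stood at 1831, 1846 and 1653 CPM in hβ3 cells in DMSO, against 1489, 1866 and 1471 CPM in Δβ3 cells and 1290, 1421 and 1598 CPM in pMx cells. Its log2 difference between hβ3 and pMx was 0.31 ± 0.15 (SE; adjusted p = 0.278) with 18 libraries and 0.29 (adjusted p = 0.0215) with 16. Actg1 and Flna, the cytoplasmic γ-actin and the crosslinker filamin A, had 19 to 62 and 1 to 11 counts per library. Between hβ3 and pMx in DMSO the log2 difference of Actg1 was 0.30 (95% interval -0.44 to 1.04) and that of Flna 0.28 (95% interval -0.96 to 1.53), too wide to show a change of the size seen in Actb.

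Against Δβ3 in DMSO, hβ3 cells had 2 of the 10 genes called, Actb and Cnn2, both higher, where 13.1% of all genes were called. With 16 libraries 5 of 10 were called, all higher (Tpm4, Vcl and Myh9 added), where 23.3% of all genes were. The heart muscle marker sum was 250.2 to 565 CPM in hβ3 and 508 to 6409 CPM in Δβ3 libraries in DMSO, and the luminal sum, without overlap, 1981 to 2077 CPM in hβ3 and 3049.6 to 3416 CPM in Δβ3; their part in these differences was not tested. The uncalled log2 differences of hβ3 from Δβ3 not given above were 0.14 ± 0.15 for Pfn1, -0.04 ± 0.35 for Actg1 and -0.37 ± 0.58 for Flna. Between Δβ3 and pMx in DMSO none of the 10 was called with 18 or with 16 libraries, where 0.0412% and 0.332% of all genes were; 1 of the 10, Myh9, had an unadjusted p under 0.05 with 18 libraries, and DESeq2 called none. The Cnn2 log2 difference between Δβ3 and pMx in DMSO was 0.21 (95% interval -0.08 to 0.49) with 18 libraries and 0.30 (adjusted p = 0.0564) with 16. That of Myh9 was 0.64 ± 0.22 with 18 libraries and 0.20 (adjusted p = 0.651) with 16. The other differences between Δβ3 and pMx in DMSO were 0.03 ± 0.14 for Actb, 0.35 ± 0.35 for Actg1, 0.16 ± 0.15 for Pfn1, 0.34 ± 0.18 for Tpm1, 0.20 ± 0.14 for Tpm4, 0.65 ± 0.59 for Flna, 0.17 ± 0.11 for Vcl and -0.06 ± 0.31 for Zyx.

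**Figure D3:**
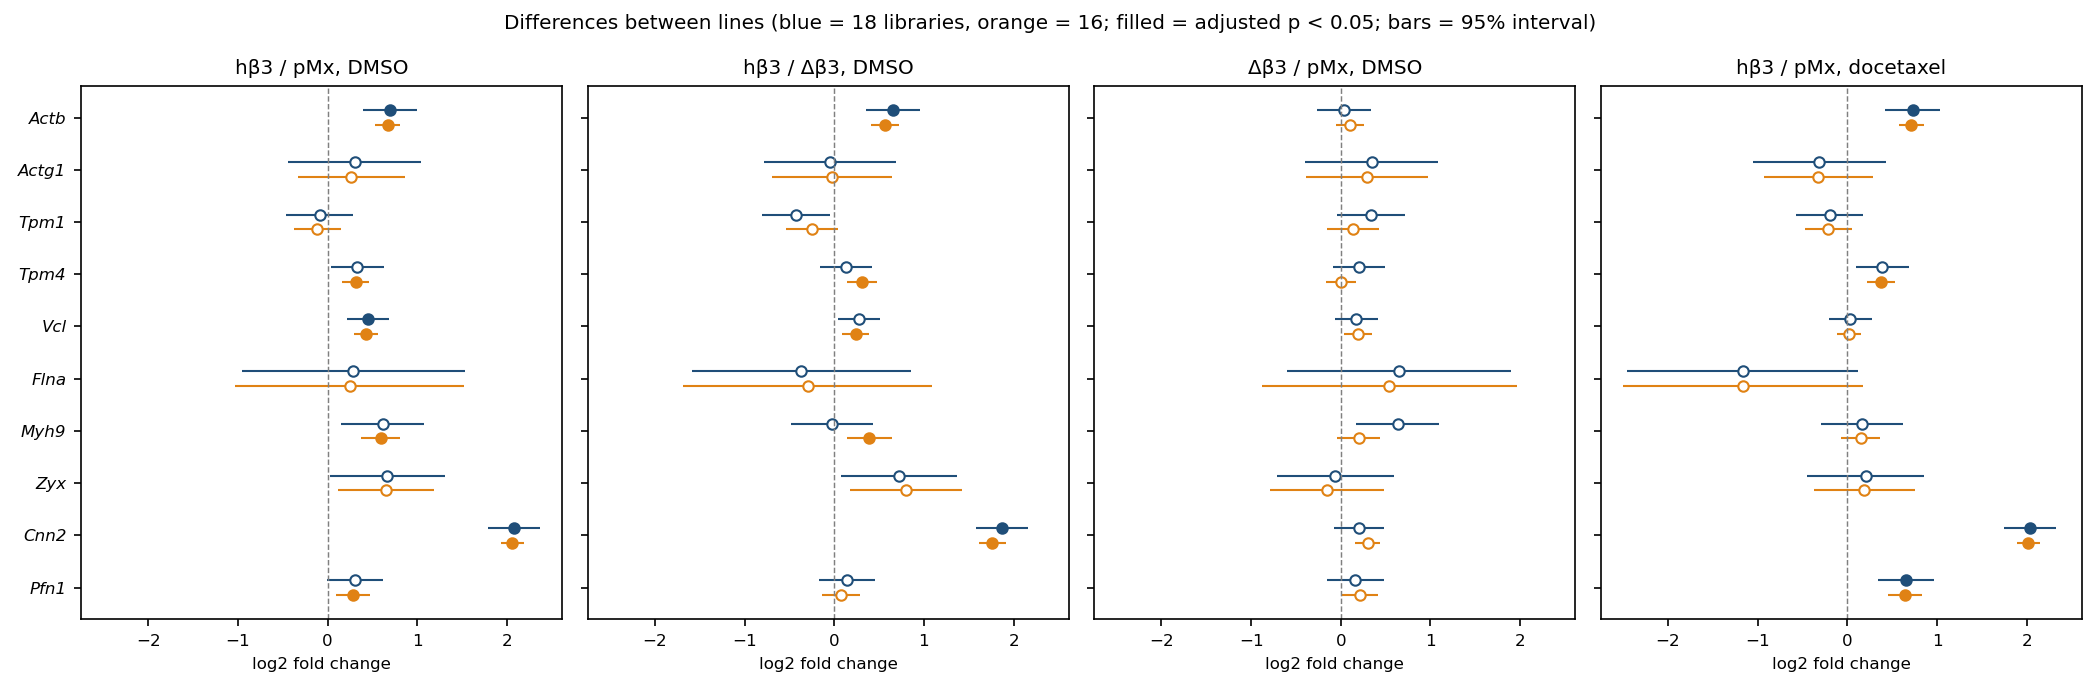
Log2 fold change of each of the 10 genes between lines, with 95% intervals, for hβ3 over pMx, hβ3 over Δβ3 and Δβ3 over pMx in DMSO and hβ3 over pMx in docetaxel; blue is 18 libraries, orange 16, and filled points have an adjusted p under 0.05. Cnn2 lies near 2 in the 2 comparisons of hβ3 with pMx (2.08 in DMSO and 2.03 in docetaxel), and no point is filled for Δβ3 over pMx.

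In docetaxel, Actb and Cnn2 were again higher in hβ3 cells than in both other lines, and so was Pfn1. The hβ3 cells had 3 of 10 genes called against pMx (Actb, Cnn2 and Pfn1, all higher; 8.46% of all genes) and the same 3 against Δβ3 (all higher; 10.1% of all genes). With 16 libraries Tpm4 was added in both, giving 4 of 10 where 27.3% and 19.9% of all genes were called. In docetaxel the luminal marker sum was 2234 to 2526 CPM in hβ3, 1191 to 3236 CPM in Δβ3 and 2176 to 2506 CPM in pMx libraries, with overlap among all 3 lines. The heart muscle sum was 209 to 842 CPM in hβ3, 357 to 53418 CPM in Δβ3 and 261 to 2695 CPM in pMx libraries. The 2695 CPM were those of pMx docetaxel culture 1. The part of these sums in the differences was not tested. Cnn2 stood at 540, 557 and 526 CPM in docetaxel-treated hβ3 cells, against 168, 234 and 165 CPM in Δβ3 cells and 129, 131 and 137 CPM in pMx cells. From pMx it differed by 2.03 ± 0.14 on the log2 scale (SE; adjusted p = 8.96e-08), and from Δβ3 by 1.52 ± 0.14 (adjusted p = 1.41e-06). The highest Cnn2 value among the Δβ3 cultures was that of culture 2, the library with the heart markers.

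Pfn1 with docetaxel stood at 1622, 1710 and 1588 CPM in hβ3 cells, against 1202, 827 and 1144 CPM in Δβ3 cells and 928, 1129 and 1071 CPM in pMx cells. Every hβ3 culture was above every culture of the other lines, as for 5 of the 10 genes against each line. Against pMx 1 other gene, Flna, was all below. In either direction, 43.3% of all genes did not overlap with pMx and 29.2% with Δβ3. From pMx, Pfn1 differed by 0.65 ± 0.15 on the log2 scale (SE; adjusted p = 0.00993), and from Δβ3 by 0.63 ± 0.15 (adjusted p = 0.0123). The call against pMx was lost without pMx docetaxel culture 1 (0.58, adjusted p = 0.0697) or hβ3 docetaxel culture 2 (0.63, adjusted p = 0.0543), and that against Δβ3 without hβ3 docetaxel culture 2 (0.61, adjusted p = 0.0607). Actb with docetaxel stood at 11788, 12323 and 12000.1 CPM in hβ3 cells, against 7783, 5327 and 7155 CPM in Δβ3 cells and 7578, 7261 and 6979 CPM in pMx cells. From pMx it differed by 0.73 ± 0.14 (adjusted p = 0.00336), and from Δβ3 by 0.83 ± 0.14 (adjusted p = 0.00112). In an edgeR fit on the docetaxel-treated hβ3 and Δβ3 libraries alone, 2 calls against Δβ3 were lost. They were those of Actb (0.79, adjusted p = 0.0772) and Pfn1 (0.59, adjusted p = 0.118). Within Δβ3, the lowest Actb and Pfn1 values were those of docetaxel culture 2. Tpm4, at 792, 886 and 811 CPM in hβ3 cells with docetaxel, was 0.39 ± 0.14 higher on the log2 scale than in pMx cells (561, 692 and 649 CPM; adjusted p = 0.104), and was called without Δβ3 DMSO culture 1 (adjusted p = 0.016), without Δβ3 docetaxel culture 2 (adjusted p = 0.0393) and with 16 libraries (adjusted p = 0.000352).

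No Vcl difference between lines was called in docetaxel. Vcl stood at 560, 553 and 548 CPM in hβ3 cells, against 635, 486 and 574 CPM in Δβ3 cells and 591, 511 and 522 CPM in pMx cells, and the groups overlapped. Between hβ3 and pMx in docetaxel, Vcl differed on the log2 scale by 0.03 (95% interval -0.20 to 0.27). For Δβ3 against pMx in docetaxel none of the 10 genes was called with 18 libraries (0.0247% of all genes), 1 had an unadjusted p under 0.05 (Cnn2) and DESeq2 called none. The log2 difference of Cnn2 there was 0.52 ± 0.13 (SE; adjusted p = 0.347) with 18 libraries. Of the 10 genes, 1 (Cnn2) lay all above and 1 (Flna) all below in Δβ3, where 12.3% of all genes had no overlap. With 16 libraries Cnn2 was called there, at a log2 difference of 0.32 (adjusted p = 0.0237), where 0.453% of all genes were. Actg1 was called lower in hβ3 than in Δβ3 with docetaxel (-0.99, adjusted p = 0.0379) in 1 fit alone, that without Δβ3 docetaxel culture 1, and it stood at -0.65 ± 0.35 (adjusted p = 0.232) with 18 libraries and -0.26 (adjusted p = 0.692) with 16. The other uncalled differences of hβ3 from Δβ3 and from pMx in docetaxel lay between -0.06 (Flna) and 0.29 (Tpm4) and between -1.17 (Flna) and 0.39 (Tpm4) on the log2 scale.

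With docetaxel, Actb, Tpm4, Pfn1 and Cnn2 fell over the mean of the 3 lines, to between 0.741 (Actb) and 0.8 (Cnn2) of the level in DMSO. These 4 of the 10 genes fell and none rose, where 15.6% of all genes were called. With 16 libraries the same 4 were called and 30.1% of all genes were. The median log2 change of the 10 genes was -0.30, against 0.06 over all genes, and 9 of the 10 had a negative change. The mean log2 change of Actb was -0.43 ± 0.08 (SE; adjusted p = 0.00161), that of Tpm4 -0.43 ± 0.08 (adjusted p = 0.00146), that of Pfn1 -0.39 ± 0.09 (adjusted p = 0.00459) and that of Cnn2 -0.32 ± 0.08 (adjusted p = 0.00822). All 4 calls held in each of the 18 fits that left out 1 library. The other mean log2 changes were -0.07 ± 0.06 for Vcl, -0.04 ± 0.13 for Myh9, -0.28 ± 0.18 for Zyx, -0.10 ± 0.10 for Tpm1, 0.10 ± 0.20 for Actg1 and -0.39 ± 0.35 for Flna, none of them called. For Myh9 the mean change was 0.13 (adjusted p = 0.159) with 16 libraries.

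By line, the levels were as follows. In hβ3 cells Actb stood at 11788 to 12323 CPM with docetaxel, against 14623 to 17128 CPM with DMSO. In pMx cells it stood at 6979 to 7578 CPM with docetaxel, against 9173 to 10012 CPM with DMSO. In Δβ3 cells it stood at 5327 to 7783 CPM with docetaxel, against 8746 to 10964 CPM with DMSO. In no line did the treated and vehicle cultures overlap. Tpm4 also had no overlap in any line. Over all genes, 29.0% had no overlap in hβ3, 18.1% in Δβ3 and 35.1% in pMx cells, against 4, 3 and 5 of the 10 genes. The luminal marker sum in hβ3 cells was 2234 to 2526 CPM with docetaxel and 1981 to 2077 CPM with DMSO, without overlap, and its part was not tested. In Δβ3 cells Tpm4 stood at 713, 648 and 682 CPM with docetaxel, against 828 to 1213 CPM with DMSO. Cnn2 stood at 526 to 557 CPM with docetaxel, against 729 to 756 CPM with DMSO in hβ3 cells, and at 129 to 137 CPM against 170 to 181 CPM in pMx cells. In Δβ3 cells its ranges overlapped, at 165 to 234 CPM with docetaxel against 174 to 226 CPM with DMSO. Pfn1 overlapped with the vehicle in hβ3 cells alone, at 1588 to 1710 CPM with docetaxel against 1653 to 1846 CPM with DMSO.

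**Figure D4:**
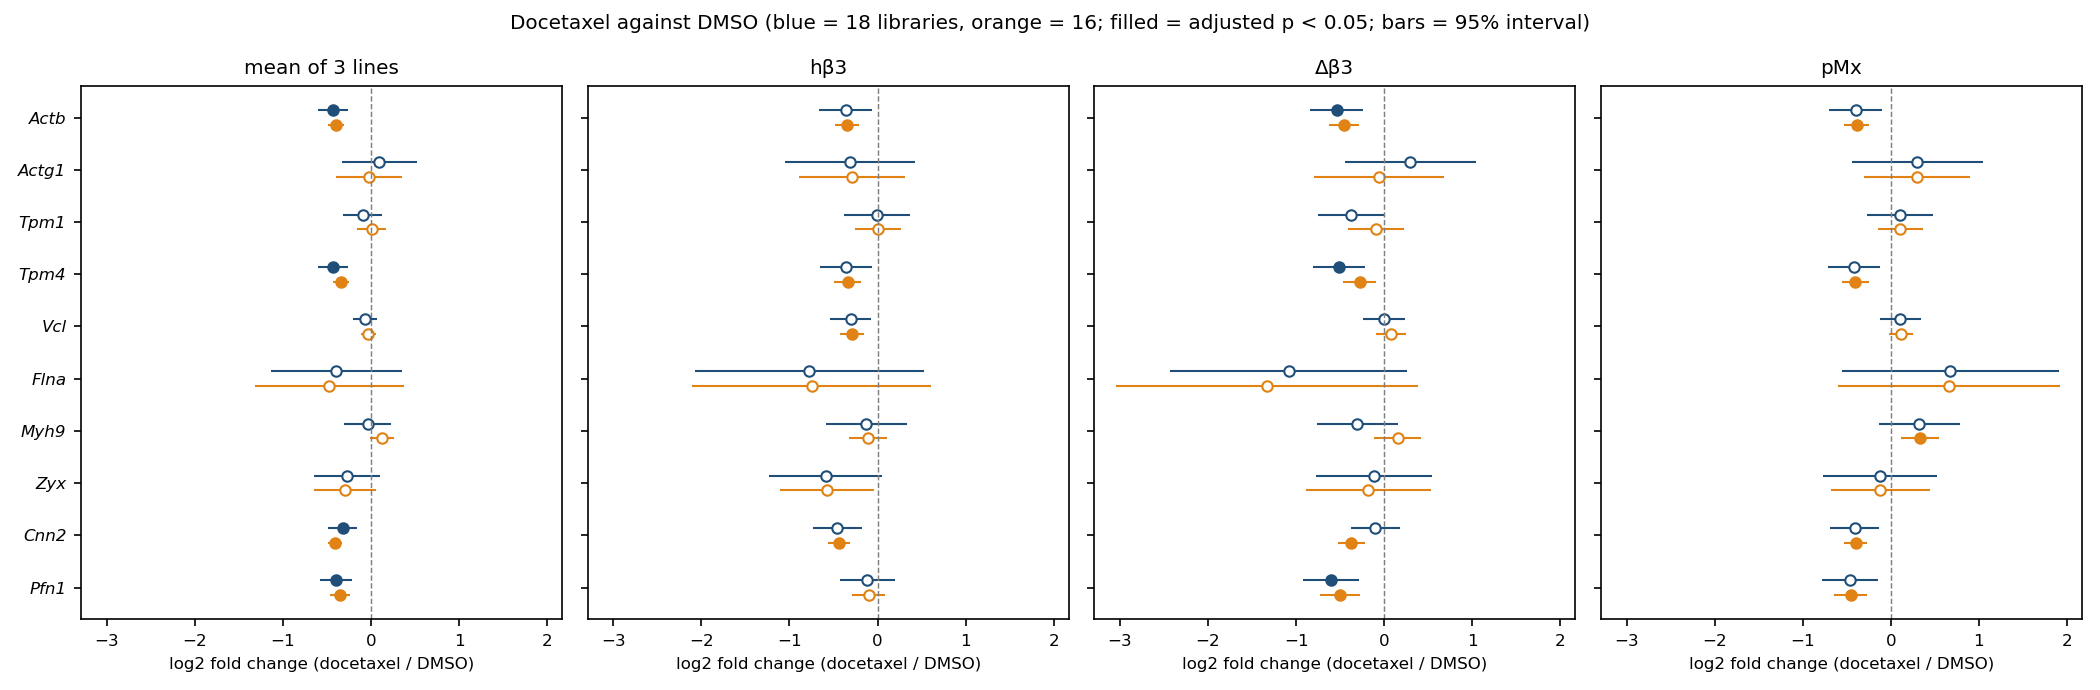
Log2 fold change of each of the 10 genes with docetaxel over DMSO, with 95% intervals, for the mean of the 3 lines and for hβ3, Δβ3 and pMx; blue is 18 libraries, orange 16, and filled points have an adjusted p under 0.05. Actb, Tpm4, Pfn1 and Cnn2 are filled left of 0 in the mean at -0.43, -0.43, -0.39 and -0.32, and the intervals of Flna, with 104 counts in all, are the widest.

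Within single lines the number of calls changed when the 2 Δβ3 libraries with high heart markers were left out. Those libraries enter the estimate of the spread that all groups share, and the cause of the change was not tested. In hβ3 cells none of the 10 genes was called with 18 libraries (1.16% of all genes), while 4 had an unadjusted p under 0.05 and DESeq2 called 2, Vcl and Cnn2. With 16 libraries Actb, Tpm4, Vcl and Cnn2 fell, 4 of 10, where 12.5% of all genes were called. In Δβ3 cells Actb, Tpm4 and Pfn1 fell with 18 libraries, 3 of 10 where 6.87% were, and Cnn2 joined them with 16, 4 of 10 where 11.3% were. In pMx cells none was called with 18 libraries (3.62% of all genes), while 4 had an unadjusted p under 0.05 and DESeq2 called 4, Actb, Tpm4, Cnn2 and Pfn1. With 16 libraries those 4 fell in pMx cells and Myh9 rose, 5 of 10 where 21.3% of all genes were called. Myh9 stood at 2536, 2467 and 2619.5 CPM with docetaxel in pMx cells, against 2050.3, 2185 and 1852 CPM with DMSO, without overlap. Its log2 change there was 0.33 ± 0.22 (SE; adjusted p = 0.569) with 18 libraries and 0.33 (adjusted p = 0.0283) with 16.

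The log2 change of Actb was -0.36 ± 0.14 in hβ3 cells (adjusted p = 0.348), -0.54 ± 0.14 in Δβ3 cells (adjusted p = 0.0335) and -0.40 ± 0.14 in pMx cells (adjusted p = 0.156). That of Tpm4 was -0.36 ± 0.14, -0.51 ± 0.14 (adjusted p = 0.0366) and -0.41 ± 0.14 in hβ3, Δβ3 and pMx cells, and that of Pfn1 -0.12 ± 0.15, -0.61 ± 0.15 (adjusted p = 0.024) and -0.46 ± 0.15. The calls in Δβ3 cells were near the threshold. That of Actb was lost, at adjusted p between 0.0509 and 0.103, without any 1 of pMx DMSO cultures 1, 2 and 3, pMx docetaxel cultures 2 and 3, Δβ3 DMSO cultures 2 and 3, and hβ3 docetaxel cultures 1, 2 and 3. That of Tpm4 was lost, at adjusted p between 0.0518 and 0.109, without any 1 of pMx DMSO cultures 1, 2 and 3, pMx docetaxel culture 3, Δβ3 DMSO culture 1, Δβ3 docetaxel culture 3, hβ3 DMSO cultures 1 and 3, and hβ3 docetaxel cultures 1, 2 and 3. Without Δβ3 DMSO culture 1 the log2 change of Tpm4 was -0.30, while it lay between -0.50 and -0.52 in those other fits; with no filter on low counts the call was also lost (-0.52, adjusted p = 0.0586). That of Pfn1 was lost without Δβ3 DMSO culture 2 (adjusted p = 0.0881). In an edgeR fit on the Δβ3 libraries alone, the calls of Actb, Tpm4 and Pfn1 were all lost (adjusted p = 0.587 for each). With the replicate number as a block, those of Actb (adjusted p = 0.0614) and Tpm4 (0.0618) were lost. Without Δβ3 docetaxel culture 2 alone, the falls of Actb (adjusted p = 0.00964), Tpm4 (0.0409), Cnn2 (0.00654) and Pfn1 (0.0104) were called in pMx cells, and those of Actb (0.0314), Vcl (0.0393) and Cnn2 (0.00565) in hβ3 cells. Without Δβ3 DMSO culture 1 alone, Tpm4 was called in pMx cells (adjusted p = 0.0175).

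The difference between lines in the response was tested as an interaction. None of the 10 genes was called with 18 libraries for hβ3 against pMx (0.0165% of all genes), hβ3 against Δβ3 (0.0412%) or Δβ3 against pMx (0%), and DESeq2 called none of the 10 in any of the 3. At an unadjusted p under 0.05 there were 1, 1 and 0 of the 10. The one with the smallest p was Vcl for hβ3 against pMx. Its response was -0.31 ± 0.11 in hβ3 cells, -0.001 ± 0.11 in Δβ3 cells and 0.11 ± 0.11 in pMx cells on the log2 scale, and the difference between hβ3 and pMx was -0.42 ± 0.16 (adjusted p = 1). With 16 libraries that difference was -0.41 (adjusted p = 0.019), the 1 of 10 called, where 2.3% of all genes were. With 16 libraries none was called for hβ3 against Δβ3 (0.591% of all genes) or Δβ3 against pMx (0%). For Pfn1 the response in hβ3 minus that in Δβ3 was 0.49 ± 0.21 (adjusted p = 0.579), and 0.40 (adjusted p = 0.304) with 16 libraries. For Cnn2 the response in hβ3 minus that in pMx was -0.05 (95% interval -0.44 to 0.35).

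Other genes of the same machinery were taken from 5 lists, of which 84 genes were tested. Srf, which encodes SRF, stood at 317 ± 22.1 CPM in hβ3 cells in DMSO, 349 ± 146 CPM in Δβ3 cells and 247 ± 16.8 CPM in pMx cells (SD, n = 3). Between hβ3 and pMx in DMSO, Srf differed on the log2 scale by 0.36 (adjusted p = 0.605) with 18 libraries and 0.34 (adjusted p = 0.00172) with 16. Its mean response to docetaxel was -0.34 ± 0.17 (adjusted p = 0.204) with 18 libraries and -0.38 (adjusted p = 1.34e-06) with 16. Srf was highest in the 2 libraries with high heart markers, at 472 CPM in the docetaxel-treated and 517 CPM in the DMSO one, against 176 to 342 CPM in the other 16. Mkl1, which encodes the cofactor MRTF-A, differed by 0.55 ± 0.24 between hβ3 and pMx in DMSO (adjusted p = 0.226), and by 0.52 (adjusted p = 0.0277) with 16 libraries. Mkl2, for MRTF-B, stood under 1 CPM in every library and was not tested.

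Among focal adhesion components, 7 of 29 tested genes were higher in hβ3 than in pMx cells in DMSO and none was lower, with a median log2 difference of 0.21; this is 24.1% of the list, where 9.02% of all genes were called. The 7 were Tns3, Pdlim1, Ajuba, Parvb, Parva, Tln1 and Git1. Tns3, a tensin that binds integrin tails, stood at 141 ± 13.9 CPM in hβ3 cells against 54.2 ± 6.51 CPM in pMx cells (SD, n = 3; log2 difference 1.38 ± 0.14, adjusted p = 3.36e-06). Pdlim1, a PDZ and LIM protein of stress fibres, stood at 324 ± 14.2 against 133 ± 15.5 CPM (1.28 ± 0.15, adjusted p = 2.84e-05), and the LIM protein gene Ajuba at 149 ± 18.9 against 53.6 ± 6.01 CPM (1.47 ± 0.22, adjusted p = 0.00021). All 3 were also higher in hβ3 than in Δβ3 cells, by 1.39 for Tns3, 1.45 for Pdlim1 and 1.12 for Ajuba on the log2 scale. In that comparison 4 of 29 were higher and 1, Tln2, was lower (17.2%, where 13.1% of all genes were called). With 16 libraries 10 were higher and 2 lower against pMx (41.4%, where 26.8% of all genes were called), and 11 were higher and none lower against Δβ3 (37.9%, where 23.3% were), and Tln2 was not called against Δβ3 (-0.79, adjusted p = 0.0886).

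Of 34 genes of actin assembly and turnover, 4 were higher in hβ3 than in pMx cells in DMSO and none was lower: Fscn1, which encodes the filament bundler fascin (247 ± 25.8 against 118 ± 2.19 CPM; SD, n = 3; log2 difference 1.07, adjusted p = 0.000113), Msn and Ezr, which encode the membrane linkers moesin and ezrin (0.90 and 0.63), and Wdr1 (0.41). These are 11.8% of the list, near the 9.02% of all genes. Against Δβ3, Fscn1, Msn, Wdr1 and Wasl were higher and Pfn2 and Cotl1 lower, or 17.6% where 13.1% of all genes were called; Pfn2 stood at -1.07 (adjusted p = 0.0491) and, with 16 libraries, at -0.47 (adjusted p = 0.144). Of 11 other MRTF-SRF targets, Mical2 (1.27, adjusted p = 0.00389) and Flnc (1.21, adjusted p = 0.00998) were higher in hβ3 than in pMx cells, and Csrp2 differed by -0.81 (adjusted p = 0.0823). Against Δβ3, Mical2 was higher and the LIM genes Csrp1 and Csrp2 lower. Of 6 genes of myosin II and its regulators none was called against pMx (2, Rock1 and Myl12a, had an unadjusted p under 0.05), with log2 differences of 0.33 for Rock1, 0.45 for Myl12a and -0.46 for Myl6. Against Δβ3 Rock1 was higher (0.74) and Myl6 lower (-0.75), and Myl12b differed by -0.57 (adjusted p = 0.105). With 16 libraries, 9 assembly genes were higher and 3 lower against pMx (35.3%, where 26.8% of all genes were called), and 7 higher and 3 lower against Δβ3 (29.4%, where 23.3% were). The other MRTF-SRF targets had 4 higher and 2 lower of 12 against pMx, and 3 and 2 against Δβ3, and the myosin list 2 and 1 of 6 against pMx and 1 and 2 against Δβ3.

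Of the 4 tested muscle and other actins and tropomyosins none was called between lines or with docetaxel by edgeR. At an unadjusted p under 0.05 there were Tpm3 between hβ3 and Δβ3 in DMSO, and Acta2 and Actc1 both between hβ3 and Δβ3 and between Δβ3 and pMx in docetaxel. In DMSO, Tpm3 and Tpm2 differed by 0.33 and -0.88 between hβ3 and pMx and by 0.71 and -0.68 between hβ3 and Δβ3. Actc1, the cardiac actin, stood at 9736 CPM in Δβ3 docetaxel culture 2, at 1168 CPM in culture 1 of Δβ3 in DMSO, and at 38.6 to 498 CPM in the other 16 libraries. Acta1, skeletal actin, was at 0 in 17 libraries and at 0.08 CPM in Δβ3 DMSO culture 2. Between Δβ3 and pMx in DMSO none of the 84 tested genes of the 5 lists was called by edgeR with 18 libraries, or of 85 with 16, while 8 of the 84 had an unadjusted p under 0.05. The smallest p there in each list were those of Wasf2 (1.07), Pfn2 (0.89) and Ezr (0.33), of Parvb (0.37), Nedd9 (-0.75) and Parva (0.35), of Flnc (0.70), Csrp1 (0.28) and Srf (0.50), of Rock1 (-0.41), Ppp1cb (-0.27) and Rock2 (-0.29), and of Tpm3 (-0.38), Acta2 (0.91) and Actc1 (0.75), as log2 differences of Δβ3 from pMx.

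With docetaxel, over the mean of the 3 lines, the called list genes went both ways, 3 up and 7 down of 84, or 11.9%, where 15.6% of all genes were called. With 16 libraries 23 of 85 were called, or 27.1%, where 30.1% of all genes were. Together the 5 lists held no larger share of called genes than the whole table. Of 29 focal adhesion components Ajuba (-0.68 ± 0.12, adjusted p = 0.00114), Tns3 (-0.39 ± 0.08, adjusted p = 0.00204) and Pdlim1 (-0.30) fell. Tns1 rose (2.16 ± 0.59, adjusted p = 0.0199) but stood at 2.01 CPM or less in every library except Δβ3 docetaxel culture 2, at 10.3 CPM. Of 34 assembly and turnover genes Cfl1, for the severing protein cofilin (-0.45 ± 0.10, adjusted p = 0.00564), Ezr (-0.38 ± 0.08, adjusted p = 0.00361), Pls3 (-0.47) and Wdr1 (-0.24) fell. Tmsb4x, for thymosin β4, which sequesters actin monomers, rose (0.62 ± 0.10, adjusted p = 0.000605), at 231 ± 22.4 CPM with docetaxel against 187 ± 27.7 CPM with DMSO in hβ3 cells, 417 ± 65.5 against 215 ± 54.8 CPM in Δβ3 cells and 280 ± 42.2 against 187 ± 14.5 CPM in pMx cells (SD, n = 3). Of 11 other MRTF-SRF targets Lmod1, a leiomodin, rose (2.02 ± 0.43, adjusted p = 0.00368), and stood under 1 CPM in every DMSO library and at 10.4 CPM in Δβ3 docetaxel culture 2. With 16 libraries the changes of Lmod1 (1.65, adjusted p = 0.000138) and Tns1 (1.81, adjusted p = 0.00159) were still called. No gene of the myosin II or muscle actin lists was called by edgeR with 18 libraries, and 0 of them had an unadjusted p under 0.05. Their smallest p were those of Myl12b (0.18), Ppp1cb (0.07) and Myl12a (-0.09), and of Acta2 (0.87), Tpm3 (0.16) and Actc1 (0.88), as log2 changes, and Flnc changed by -0.49 (adjusted p = 0.0537). With 16, the focal adhesion list had 3 higher and 3 lower, the assembly list 4 and 6, the other MRTF-SRF targets 2 and 3, and the myosin list 0 and 2. The median log2 changes of the lists lay between -0.03 and 0.54, the highest being that of the 4 muscle genes, which was -0.01 with 16 libraries.

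**Figure D5:**
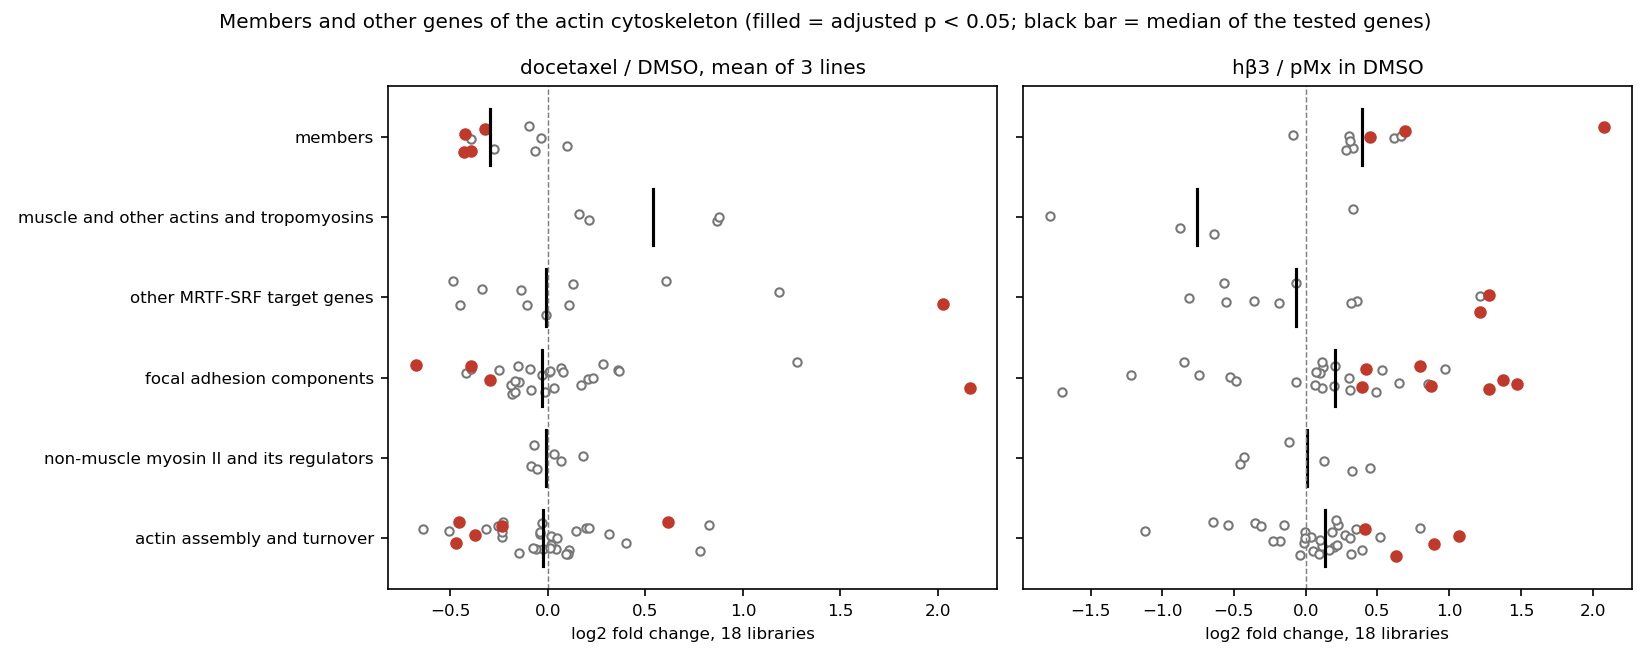
Log2 fold change of the tested genes of each list, members on top, for docetaxel over DMSO in the mean of the 3 lines (left) and for hβ3 over pMx in DMSO (right), with 18 libraries; filled points have an adjusted p under 0.05 and black bars are medians. On the right all filled points lie above 0, and on the left the members' median is -0.30 and their 4 filled points lie below 0.

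Across all 18 libraries the genes with the profile most like that of Actb, by root mean square difference of centred log2 CPM, were Rcl1 (0.10), Pgam1 (0.11), Epha2 (0.11), Pgk1 (0.12) and Srfbp1 (0.12), out of 9683 protein-coding genes ranked. Rcl1, which encodes an RNA cyclase-like protein of ribosome formation, stood at 170 ± 12.6 CPM with docetaxel against 224 ± 16.7 CPM with DMSO in hβ3 cells (SD, n = 3), and at 97.0 ± 4.72 against 149 ± 6.33 CPM in pMx cells. Among the members Pfn1 was nearest to Actb, at rank 72 (0.19), followed by Tpm4 at rank 547 (0.29). Cnn2, with its larger gap between lines, was at rank 4937 (0.61). The likeness is a description over libraries that share lines and treatments.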

How the data were processed

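RNA-seq libraries of 18 cultures were compared. Per the labels' protocols, ribosomal RNA was removed by hybridisation and single-end reads were made; per the submitters' processing notes, FastQC, HISAT2 and featureCounts were used on build mm10. For versions, annotation, strand setting and reads fitting several models, the setting was not given in the sources used. The authors deposited raw counts per transcript model (63759 models), with a model length as another value that entered only levels per kilobase. Symbols were freed of trailing spaces and counts summed per symbol (32699 symbols, 13170 of them with several models). Genes were filtered with filterByExpr, scaled by TMM and compared by the robust quasi-likelihood test of edgeR 4.0.16 (R 4.3.3) in 1 design with 6 groups over 18 libraries, leaving 12145 genes (12356 with 16 libraries). Two-sided p-values were adjusted by Benjamini-Hochberg over all genes tested, with calls at 0.05. Levels are CPM of the scaled library size, and SE and 95% intervals of log2 changes are from the same fit. The code was tested on simulated data. DESeq2 1.42.0, RLE factors, no count filter, a replicate block, fits on fewer groups, unsummed models, no Rn45s, 16 libraries and each library left out were tried. Counts limit precision, and the depth per library is 7972612 to 18961392 counts. The rule for naming took all 10 members in every comparison, but in places uncalled members are given by their range or left out. Of each list, the rule took the 3 genes with the smallest p in the mean response and between lines in DMSO. It also took Srf, Mkl1, Mkl2, Itgb3, Actc1 and Acta1 and the 5 genes most like Actb. Other called list genes (Parva, Parvb, Tln1, Tln2, Git1, Wasl, Cotl1, Pls3 and, for some comparisons, Pdlim1, Ezr, Wdr1 and Pfn2) were named after their values were seen. The members and lists were chosen with earlier results of these data known. One further list is not reported here.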

Additional observations from a re-analysis of the deposited data

How the results depend on the processing

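Of 13 counts of called members, that of the mean docetaxel response was 4 under every setting. Without the 2 Δβ3 libraries with high heart markers, counts were 5 for docetaxel in pMx (0 with all libraries), 4 in hβ3 (0), 6 for hβ3 against pMx in DMSO (3), 5 for hβ3 against Δβ3 in DMSO (2), 1 for Δβ3 against pMx in docetaxel (0) and 1 for the response of hβ3 against that of pMx (0). Myh9 in hβ3 against Δβ3 in DMSO turned from -0.02 to 0.39 on the log2 scale. DESeq2 called 4 members in pMx and 2 in hβ3 for docetaxel. Fits on only the groups compared called 5 in pMx, 0 in Δβ3 and 4 in hβ3 for docetaxel, 7 for hβ3 against pMx in DMSO and 1 in the docetaxel comparison of hβ3 with Δβ3, and 1 for the response of hβ3 against that of pMx. Leaving out each library gave 0 to 4 members for docetaxel in pMx, 1 to 3 in Δβ3 and 0 to 3 in hβ3, 2 to 5 and 2 to 3 in DMSO for hβ3 set against pMx and Δβ3, and 2 to 4 for either in docetaxel. The cause was not tested. With the replicate number as a block, the count for docetaxel in Δβ3 was 1 (3 without the block), and the other 12 counts were the same. Over 45 pairs of libraries with the same number the correlation of deviations was -0.53 to 0.46 (median 0.05). The median for libraries of other groups with another number was -0.02. With so wide a spread, these values cannot decide whether the numbers pair the cultures. Counts of all genes called moved more with the 16 libraries: 3715 against 1891 for the mean response, 2626 against 440 in pMx, 1391 against 834 in Δβ3, 1539 against 141 in hβ3, 3312 against 1095 in DMSO for hβ3 with pMx and 2880 against 1594 with Δβ3, 3378 against 1027 and 2460 against 1223 for these in docetaxel, 41 against 5 and 56 against 3 for Δβ3 with pMx in DMSO and docetaxel, and 284 against 2 and 73 against 5 for the interactions of hβ3 with pMx and with Δβ3. DESeq2 called 916 genes in pMx, 1624 in Δβ3 and 417 in hβ3 for docetaxel, and 1884 in docetaxel between hβ3 and Δβ3. Fits on only the groups compared called 2239, 0 and 1388 genes for docetaxel in pMx, Δβ3 and hβ3, 2835 and 830 for hβ3 with pMx and with Δβ3 in DMSO, and 3328 and 294 for these in docetaxel. Of 130 log2 values of members (10 genes in 13 comparisons), 15 had another sign with 16 libraries; 1 of these, Myh9 above, was called in either fit. With no filter on low counts, Vcl in hβ3 against pMx in DMSO (adjusted p = 0.0872) and Tpm4 for docetaxel in Δβ3 (0.0586) were not called. Actg1, Flna, Zyx and Tpm1 are limited by their low counts.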
